A study of Mus musculus with 27 samples.

Results

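Ska3, Gnl3, Mat1a and Zmym5 are the 4 genes that the study followed up, among 22180 genes named on its arrays. Each was taken as the row of the deposited log2 values whose only gene symbol was its own, and each of the 4 had 1 such row. RNA came from the prostate tumours of 27 F2 males, 1 array per tumour, all in 1 group. Every male carried the transgene of the line C57BL/6-Tg(TRAMP)8247Ng/J on a mixed background with PWK/PhJ, a wild-derived strain, and was bred from Tg- sires and Tg+ dames. Growth and spread were scored at 30 weeks, or earlier where a humane endpoint came first. The animals' own ages and metastasis scores were not used here. As general knowledge, TRAMP drives the SV40 T antigens from the probasin promoter in prostate epithelium, so that all of the tumours share the same oncogene. There is no untreated or control sample, and the comparisons are relations across tumours. Since each sample is bulk tissue, fewer cells of a type and less RNA per cell cannot be told apart.

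The 4 genes act in different parts of the cell. SKA3 is a subunit of the SKA complex, which holds kinetochores on the growing and shrinking ends of spindle microtubules in mitosis. GNL3, also called nucleostemin, is a GTP-binding protein of the nucleolus, where ribosomes are made, and is abundant in dividing cells. MAT1A is the methionine adenosyltransferase of liver, which makes S-adenosylmethionine, the methyl donor of the cell. ZMYM5 is a MYM-type zinc finger protein, and relatives such as ZMYM2 bind the histone demethylase LSD1 and its CoREST partners. RefSeq places all 4 genes on chromosome 14.

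The tumours were not alike in tissue. All 13 luminal epithelial markers, such as Cdh1, Krt8 and Epcam, were measured, and their mean centred log2 score split the tumours into 8 with high and 19 with low values. The 8 are P966, P471, P425, P1276, P219, P803, P1469 and P569. A neuroendocrine score split off 4 tumours with low values from the other 23. The array medians lay between 5.67 and 5.82, and the median absolute difference of an array from the row medians, called array deviation here, ran from 0.141 to 0.299. It was highest in P425 (0.299) and was 0.223 in P803, the value of rank 4.

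Ska3 varied most of the 4 genes. Its log2 level averaged 8.50 ± 0.70 (SD, n = 27), with a lowest value of 6.08 in P425, a median of 8.60 and a highest value of 9.28 in P1225, a 9.19-fold range. P425 and P803 (7.14) stood apart at the low end, and the other 25 tumours lay at 8.01 or above, with an SD of 0.44.

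Gnl3 averaged 8.27 ± 0.52 (SD, n = 27). It was lowest in P803 (6.84), followed by P425 (7.35) and P1469 (7.38), had a median of 8.37 and was highest in P1225 (8.95), a 4.32-fold range. The low end thus held P803 and P425 again, in the other order.

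Zmym5 averaged 9.66 ± 0.34 (SD, n = 27), with 8.81 in P803, a median of 9.76 and 10.2 in P1225, a 2.59-fold range. P1469 (9.14) and P425 (9.19) came after P803 from below. P1225 was thus the highest of the 27 tumours for Ska3, Gnl3 and Zmym5.

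Mat1a was low in most tumours and high in a few. It averaged 4.996 ± 0.479 (SD, n = 27), with 4.38 in P509, a median of 4.91 and 6.65 in P803. P569 followed at 6.14, P425 at 5.53 and P1469 at 5.45. Only P803 and P569, 2 of 27 tumours, exceeded 5.75, the median of all values on the arrays. Whether the values of the other 25 are above background was not tested. The 4 tumours with the highest Mat1a are all among the 8 with high luminal markers. Levels of different genes are not set against each other, because each probe set has its own response. The SD of Ska3 exceeded that of 87.7% of genes, of Gnl3 78.1%, of Mat1a 74.9% and of Zmym5 57.2%.

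**Figure D1:**
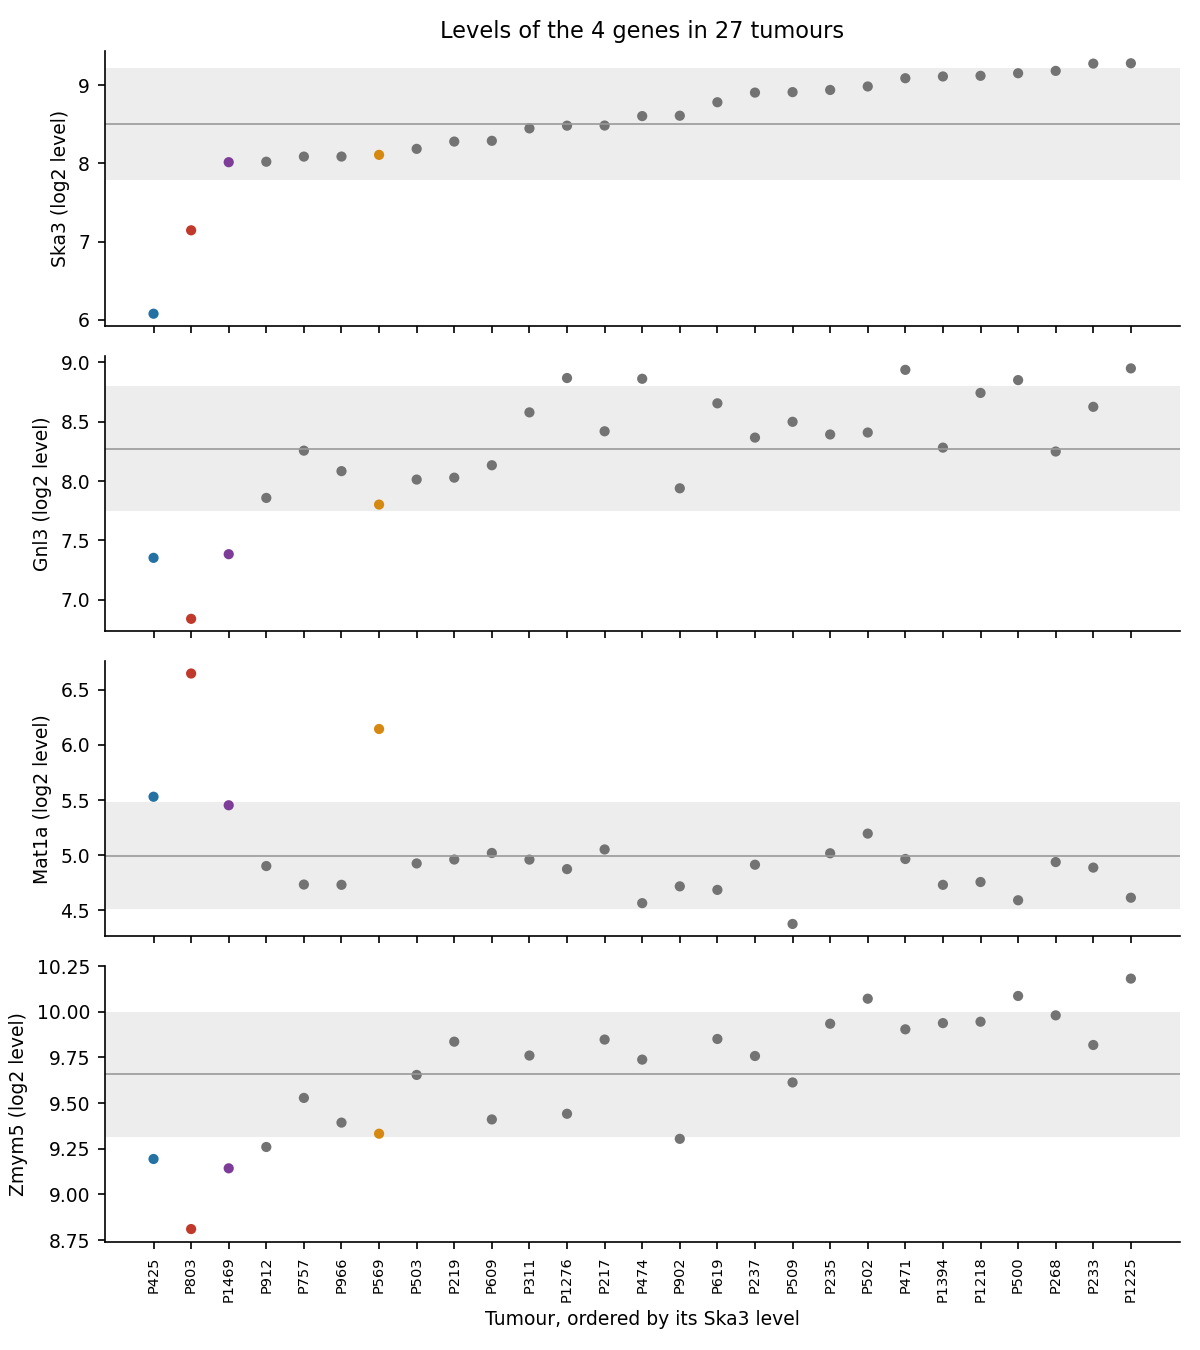
Log2 level of each gene (y axis, 1 panel per gene with its own range) in the 27 tumours, ordered along the x axis by Ska3; the line is the mean, the band 1 SD on either side, and P425 (blue), P803 (red), P1469 (purple) and P569 (orange) are coloured. P425 and P803 sit below the Ska3 band, while the same 4 coloured tumours hold the 4 highest Mat1a values.

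Ska3, Gnl3 and Zmym5 rose with proliferation, and Mat1a did not pass the test. Proliferation was read from a mitosis score, the mean centred log2 value of 18 measured genes such as Mki67, Top2a, Bub1 and Plk1, none of them among the 4 genes. In limma fits over 22162 genes, the slope of Ska3 was 0.63 ± 0.06 (SE, in log2 units for each SD of mitosis score over the 27 tumours; adjusted p = 3.0e-08). Gnl3 rose by 0.32 ± 0.08 (adjusted p = 0.0042) and Zmym5 by 0.20 ± 0.05 (adjusted p = 0.0059). The slope of Mat1a was -0.21 ± 0.08 (adjusted p = 0.063). Of all genes, 26% passed the same limma threshold in either direction and 12.6% rose, so passing it is common on these arrays.

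P425 lay far below all other tumours on the mitosis score, at -1.82, and P803 followed at -0.40. Without both, and in the same unit, the Ska3 slope was 0.65 ± 0.12 (SE; limma adjusted p = 0.00098), that of Zmym5 0.36 ± 0.09 (adjusted p = 0.011), that of Gnl3 0.41 ± 0.14 (adjusted p = 0.049) and that of Mat1a -0.19 ± 0.13 (adjusted p = 0.33). The share of all genes that passed was 13.2%, with 6.89% rising and 6.3% falling. Leaving out P425 alone gave slopes of 0.77 for Ska3, 0.57 for Gnl3, 0.43 for Zmym5 and -0.41 for Mat1a (limma adjusted p = 0.00010, 0.0080, 0.0015 and 0.059), so that the slopes of Gnl3, Zmym5 and Mat1a were steeper by over 1.5 times without it. With the scores of fibroblasts, smooth muscle, macrophages and endothelium as covariates the Gnl3 slope was 0.28 (adjusted p = 0.058). Against a DNA replication score in place of mitosis, Zmym5 had a slope of 0.14 for each SD of that score (adjusted p = 0.10). The Mat1a slope passed the limma threshold without P569 alone (-0.21, adjusted p = 0.036).

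As correlations, r with the mitosis score was 0.89 for Ska3, 0.61 for Gnl3 and 0.60 for Zmym5, with permutation p adjusted over all 82 relations of 0.00014, 0.0094 and 0.0052. Spearman's rho was 0.84, 0.65 and 0.73. For Mat1a r was -0.44 (adjusted permutation p = 0.098) and rho -0.45. Leaving out P803 and P425 gave 0.76 for Ska3 and 0.52 for Gnl3. Within the 19 tumours of low luminal score, r was 0.76 for Ska3, 0.61 for Gnl3, 0.64 for Zmym5 and -0.17 for Mat1a. Within the 8 of high luminal score, which include P803 and P425, it was 0.89, 0.44, 0.36 and -0.11 in the same order. The relation with DNA replication was more uneven. For Ska3 r was 0.73 (adjusted permutation p = 0.0045) but rho was 0.37 and r was 0.28 without P803 and P425. For Gnl3 r was 0.52 (adjusted permutation p = 0.030), with a rho of 0.30 and 0.24 without those tumours. For Zmym5 r was 0.40 and for Mat1a -0.43, with adjusted permutation p of 0.075 and 0.091.

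**Figure D2:**
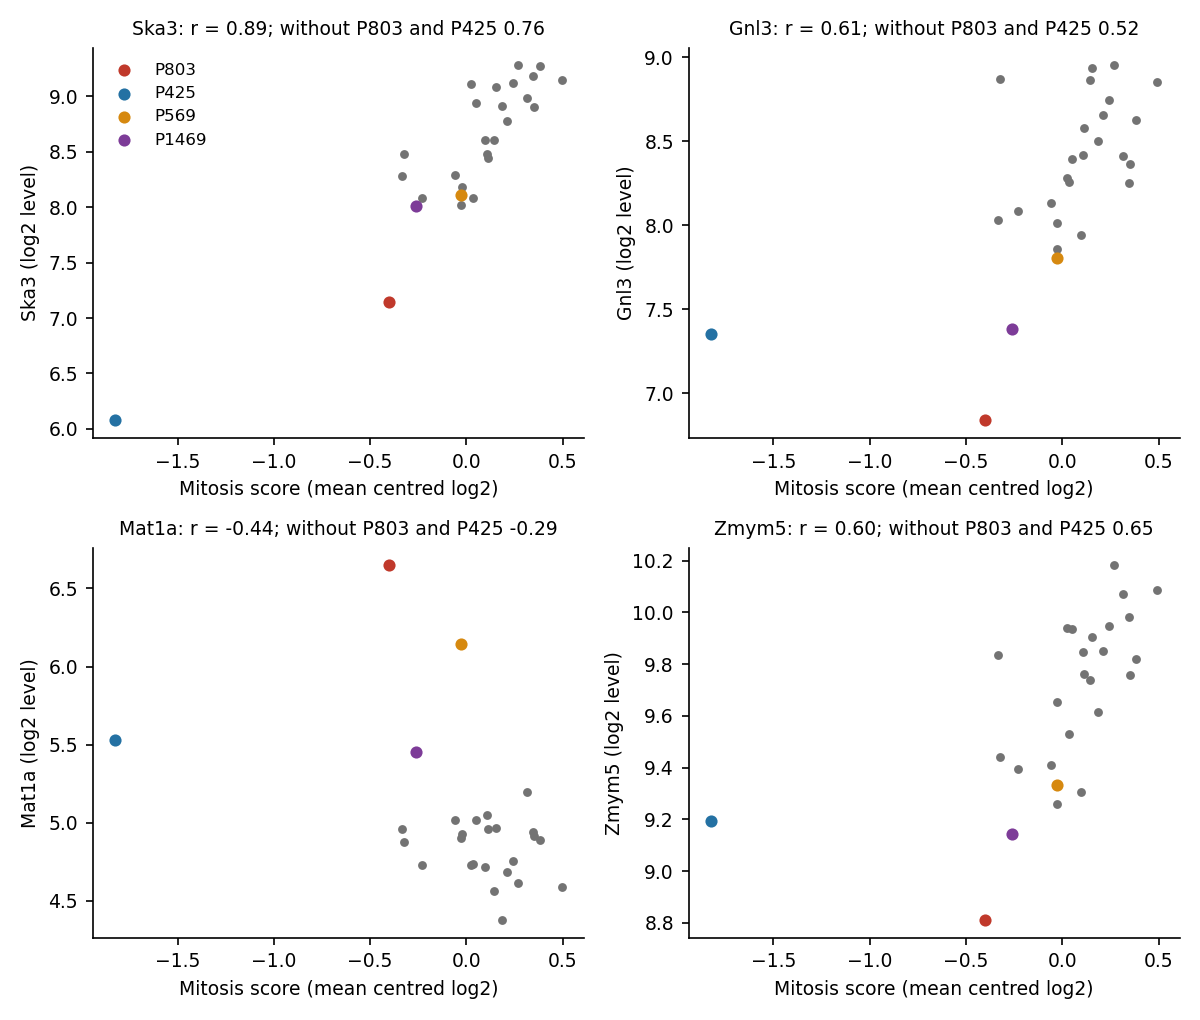
Log2 level of each gene (y axis) against the mitosis score (x axis, mean centred log2 of 18 genes) in 27 tumours, with P803, P425, P569 and P1469 coloured. P425 lies alone at a score of -1.82, and each panel gives r with and without P803 and P425.

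Ska3 rose together with nearly all kinetochore genes. Of 21 measured kinetochore genes other than Ska3, 19 rose with the Ska3 level in limma and none fell, also at an unadjusted p under 0.05 (0 genes), against 11% of all 22179 genes that rose. Ska1, a partner in the same complex, had an r of 0.90 (limma adjusted p = 8.4e-08) and Ska2, the other partner, 0.80 (adjusted p = 1.7e-05). Ndc80, the microtubule-binding subunit of the outer kinetochore, had an r of 0.89, as did the spindle checkpoint protein Mad2l1, and Knl1, the checkpoint scaffold, had 0.88. Spc24 (r = 0.25, adjusted p = 0.33) and Zwint (r = 0.24, adjusted p = 0.35) did not pass. The median r of the list was 0.82, beside -0.12 over all genes. Without P803 and P425, 14 of the 21 rose and 0 fell, beside 5.59% rising among all genes. The coefficients fell, to 0.77 for Ska1, 0.65 for Ska2 and 0.78 for Ndc80, which still passed, and to 0.12 for Cenpt, 0.23 for Cenpa and 0.35 for Bub1b, which did not.

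Of 18 mitosis genes 16 rose with Ska3, led by the topoisomerase Top2a (r = 0.92), the checkpoint kinase Bub1 (0.91) and Mki67 (0.89). Of 17 DNA replication genes 10 rose, led by Tyms, which makes thymidylate (0.78), the sliding clamp Pcna (0.73) and the helicase factor Gins1 (0.73). With P803 and P425 left out, 10 of the mitosis genes rose, beside 5.59% rising and 4.41% falling among all genes. Of the replication genes 2 then rose, Pcna (0.56, limma adjusted p = 0.035) and the polymerase subunit Pola1 (0.73, adjusted p = 0.0016), and 2 fell, the helicase subunit Mcm5 (-0.57, adjusted p = 0.029) and Gins2 (-0.60, adjusted p = 0.024). Tyms (0.48, adjusted p = 0.084) and Gins1 (0.53, adjusted p = 0.059) did not pass there. Once the mitosis score entered as a covariate, Mad2l1 had the lowest limma adjusted p of the 21 kinetochore genes (0.056, partial r = 0.59), above the threshold.

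The 10 genes most like Ska3 over the 27 tumours had r between 0.92 and 0.95. In order they were Dlgap5, Haus6, Dbf4, Esco2, Supt16, Sgo1, Top2a, Kpna2, Naa15 and Lsm3. Dlgap5 (0.95) and the augmin subunit Haus6 (0.95) act on spindle microtubules, Dbf4 (0.94) activates the kinase that fires replication origins, and Esco2 (0.94) and Sgo1 (0.92) establish and guard sister chromatid cohesion. Supt16 is a subunit of the histone chaperone FACT. With P803 and P425 left out all 10 passed, at r between 0.82 and 0.89, and 8 passed once the mitosis score entered as a covariate. These 10 were picked by their r over the same 27 tumours, so passing there is not an independent test. Dlgap5, Esco2 and Supt16 lie on chromosome 14, which holds 796 of the 22180 genes. The 5 most opposite genes were Gprc5c (-0.87), Hgfac (-0.86), Plin5 (-0.85), Saraf (-0.85) and Pex11g (-0.85), and each of the 5 was highest in P425.

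In total 5551 of 22179 genes followed Ska3, 25%, with 2444 rising and 3107 falling. Leaving out P803 and P425 gave a count of 2218, 10%, with 1239 rising and 979 falling, and adding the mitosis score as a covariate gave 488. Luminal epithelial markers fell with Ska3 in 10 of 13 cases (background 14% falling), and P425, with the lowest Ska3, had the highest luminal score of the 27 tumours (2.77). Smooth muscle markers fell in 6 of 9 cases, adipose markers in 4 of 6 and prostate secretory markers in 6 of 10. P425 also had the highest secretory score (4.06). That score had an r of -0.52 with Ska3 (adjusted permutation p = 0.052), and of -0.057 without P803 and P425. None of these luminal, smooth muscle, adipose or secretory markers passed the limma threshold without P803 and P425 (8, 2, 0 and 1 of them at an unadjusted p under 0.05). Under that unadjusted p in the same fit were 6216 of all 22179 genes. The adipose score had an r of -0.51 with Ska3 and a rho of -0.14 (adjusted permutation p = 0.054 and 0.66), and an r of -0.086 without P803 and P425, and the smooth muscle score had an r of -0.51 and -0.32 (adjusted permutation p = 0.042 and 0.28). The part of tissue composition in the Ska3 result was not tested beyond the score covariates above, with which its slope on mitosis was 0.60 (limma adjusted p = 2.6e-05), and the 19 tumours of low luminal score.

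The Ska3 promoter is shown because a short element of genes that peak in mitosis lies beside its start. RefSeq windows of 250 bases before each start (table build GRCm38.p6) were found for 3 of the 4 genes, all but Mat1a. The cell cycle homology region, CHR, is bound by the DREAM and MuvB complexes and has the letters TTTGAA. A search of both strands found it at 14 to 9 bases before the Ska3 start, on the strand opposite to the gene. In the 30 bases before the start, chr14:57826164-57826193 on the minus strand, capitals mark that element as read along the gene's strand.
Ska3: ctgcgcctgcgcaggaTTCAAAtgtgtagc
TTTGAA was present in 16% of all 32851 windows, in 7 of 15 windows of mitosis genes and in 3 of 21 of kinetochore genes. A variant of the CHR, TTCGAA, found in 1.34% of all windows, was not in the Ska3 window. The box CCAAT, found in 33.8% of all windows, in 13 of 15 of mitosis genes and in 12 of 21 of kinetochore genes, was also not in it. Ska3 shares this stretch with Mrpl57, a mitochondrial ribosome gene that starts 76 bases away and runs in the other direction, and whose own window therefore holds the same TTTGAA. The r of Mrpl57 with Ska3 was -0.12 (limma adjusted p = 0.68). A match is letters in a window and was not tested as a binding site.

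Of the 10 measured genes nearest to Ska3 on the chromosome, 2 rose and 1 fell, beside 11% rising and 14% falling among all genes. Xpo4, a nuclear transport receptor 2 genes away, rose with it (r = 0.82, limma adjusted p = 2.0e-05), as did the palmitoyltransferase Zdhhc20 (r = 0.48, adjusted p = 0.040). Il17d fell (r = -0.52, adjusted p = 0.045), but did not pass without P803 and P425 (-0.46, adjusted p = 0.14) or with mitosis as a covariate (partial r = -0.21, adjusted p = 0.60). The tumour suppressor kinase Lats2, the next gene, had an r of -0.10, and Mrpl57 overlaps Ska3 in the annotation, so their signals may not be fully separate.

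Gnl3 rose with a small set of nucleolar genes rather than with the whole list of ribosome assembly genes. Of 20 measured members 6 rose in limma and none fell, also at an unadjusted p under 0.05 (0 genes), beside 5.9% rising among all genes. Nop58, a core protein of box C/D small nucleolar RNPs, had an r of 0.80 (limma adjusted p = 0.00019), nucleolin (Ncl) 0.78 (adjusted p = 0.00033), Rrn3, an initiation factor of RNA polymerase I, 0.66 (adjusted p = 0.0070) and nucleophosmin (Npm1) 0.64 (adjusted p = 0.0056). Dkc1, the pseudouridine synthase, had 0.61 (adjusted p = 0.015) and Wdr12, of the PeBoW complex, 0.53 (adjusted p = 0.038). The PeBoW partners of Wdr12 did not pass, with Pes1 at 0.0013 and Bop1 at -0.21.

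The closest relatives of Gnl3 did not follow it. Gnl2 had an r of 0.34 (limma adjusted p = 0.24) and Gnl3l one of -0.30 (adjusted p = 0.31). Myc, a transcription factor that drives ribosome production, had 0.31 (adjusted p = 0.27). The median r of the list was 0.26, beside -0.09 over all genes. Without P803 and P425, Ncl (0.75, adjusted p = 0.0054) and Nop58 (0.80, adjusted p = 0.0025) passed, whereas Npm1 (0.56, adjusted p = 0.064), Rrn3, Dkc1 and Wdr12 did not. Those 2 also passed with the mitosis score as a covariate, at partial r of 0.62 and 0.66 (adjusted p = 0.032 and 0.020), as did Myc (0.59, adjusted p = 0.037). The score of the list had an r of 0.66 with Gnl3 (adjusted permutation p = 0.0012, rho 0.70), and 0.63 without P803 and P425.

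Most of the genes most like Gnl3 lie on its own chromosome. The 10, in order, were Exoc5 (r = 0.93), Nufip1 (0.91), Dis3 (0.89), Mcmbp (0.89), Psmc6 (0.88), Atg14 (0.88), Tbrg3 (0.87), Supt16 (0.86), Xpo4 (0.86) and Ktn1 (0.86). RefSeq places 8 of them on chromosome 14, all but Mcmbp and Tbrg3. That chromosome holds 796 of the 22180 genes. Nufip1 assembles box C/D small nucleolar RNPs and Dis3 is the exosome nuclease, whereas Exoc5 tethers vesicles, Psmc6 is a proteasome ATPase and Atg14 acts in autophagy. All 10 passed the limma threshold without P803 and P425, and again once mitosis entered as a covariate. Because the 10 were picked by r over the same tumours, these passes are not an independent test. The 5 most opposite were Cox14 (-0.86), Ogfod2 (-0.85), Mien1 (-0.84), Pex11g (-0.84) and Wars (-0.83).

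In all 2656 genes followed Gnl3, 12%, with 1308 rising and 1348 falling. Under quantile normalization of the arrays the split was 948 rising and 1685 falling. Leaving out P803 and P425 gave a count of 542, 2.44% of all genes, with 404 rising (1.82%) and 138 falling (0.622%). Of 18 mitosis genes 11 rose with Gnl3 and of 17 replication genes 4, led by Gins1 (0.79) and the helicase subunit Mcm4 (0.76). Leaving out P803 and P425 made these counts 2 (Top2a and Bub1) and 2 (Gins1 and Mcm4). Kinetochore genes rose with Gnl3 in 13 of 21 cases, and in 2 without P803 and P425. No luminal marker of 13 passed the limma threshold, although 10 of them fell at an unadjusted p under 0.05. Under that unadjusted p, in either direction, were 6279 of all 22179 genes.

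Next to Gnl3, the chromatin remodelling subunit Pbrm1 rose with it (r = 0.83, limma adjusted p = 7.7e-05), and so it did without P803 and P425 (0.66, adjusted p = 0.025). In RefSeq the Gnl3 start at base 31019131 of chromosome 14 (GRCm38.p6, minus strand) and the Pbrm1 start at base 31019138 lie 7 bases apart and point away from each other. Snord19, a small nucleolar RNA within Gnl3, had an r of 0.78 (adjusted p = 0.00023), and Snord69, also within it, 0.43 (adjusted p = 0.11). Since these overlap the host gene, how far their probes read the host transcript was not tested. Glt8d1 overlaps Gnl3 and had an r of 0.38 (adjusted p = 0.17), and no other of the 10 nearest genes passed. The 2 of 10 that rose stand beside 5.9% rising and 6.08% falling among all genes.

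Mat1a did not move with the methionine cycle. Of 16 measured members none rose past the limma threshold (2 at an unadjusted p under 0.05) and 2 fell, beside 3.85% rising and 2.17% falling among all genes. Under that unadjusted p, in either direction, were 4577 of all 22179 genes. The 2 that fell were Gamt, which uses S-adenosylmethionine to make creatine (r = -0.74, limma adjusted p = 0.00075), and Mtap, which salvages methionine (r = -0.61, adjusted p = 0.021). Gamt also passed without P803 and P425 (-0.76, adjusted p = 0.0035) and Mtap did not (-0.47, adjusted p = 0.28). Ahcy, which clears S-adenosylhomocysteine, had an r of -0.50 (adjusted p = 0.073). Mat2b, the regulatory subunit of the enzyme of dividing tissues, had -0.31 (adjusted p = 0.42). The score of the list had an r of -0.17 with Mat1a (adjusted permutation p = 0.50), and of -0.54 without P803 and P425 (adjusted p = 0.028). The catalytic subunit Mat2a was not analysed here.

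Since Mat1a is a liver gene, 10 hepatocyte markers were read beside it. The score of the markers had an r of 0.77 with Mat1a (adjusted permutation p = 0.00036, rho 0.57) and of 0.49 without P803 and P569. Its genes were not scaled, and Ttr and Tat weigh most in it, with SDs of 1.14 and 0.80 beside 0.304 or less in the others. Of the 10, 1 rose past the limma threshold, Tat, the tyrosine aminotransferase (r = 0.82, adjusted p = 7.6e-05), which was at 8.22 in P803 and 7.35 in P1469. The other 9 did not pass, and of all genes 3.85% rose. Alb, albumin, lay between 4.28 and 5.69 in all tumours (4.68 in P803, r = 0.10, adjusted p = 0.83). The fibrinogen chains Fgb and Fgg and Serpina1a had highest values of 4.22, 4.11 and 4.38, below 5.75, with r of 0.43, -0.14 and -0.034, and Fgb was highest in P569. Ttr, between 6.37 and 10.4, had an r of 0.50 (adjusted p = 0.068) and was also highest in P569. The apolipoproteins Apoa1 and Apoa2 had r of 0.50 (adjusted p = 0.17) and -0.12, and Hpd and Ttc36 had 0.22 and 0.16.

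The genes most like Mat1a were high in the same few tumours. The 10 were Sfrp5 (r = 0.88), a secreted antagonist of WNT, the polycystin relative Pkd1l3 (0.86), the islet peptide Iapp (0.85), Inpp5j (0.85), Fut1 (0.84), Ccdc65 (0.84), Adamts18 (0.84), Ankrd22 (0.83), Clca3b (0.83) and Mfsd13a (0.83). Sfrp5 was at 9.56 in P803 and 9.76 in P569 with a median of 5.47, Pkd1l3 at 9.73 and 9.63 with a median of 5.02, and Iapp at 8.07 and 9.64 with a median of 3.27. Without P803 and P569, the tumours farthest on Mat1a, the r of these 10 lay between 0.30 (Ankrd22) and 0.76 (Inpp5j). The most opposite were Prkd3 (-0.84), Nkain1 (-0.83), Ppp1r18 (-0.82), Mxra7 (-0.82) and the replication factor Gins1 (-0.82). Of the 10 most alike none lies on chromosome 14, which holds 796 of the 22180 genes.

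In all 1335 genes followed Mat1a, 6.02%, and 853 of these rose. The count was 230 without P803 and P425, 1.04% of all genes, of which 178 rose (0.803%) and 52 fell (0.234%), and 512 without P803 and P569. With the composition scores as covariates it was 355. Of 13 luminal markers 7 rose with Mat1a, beside 3.85% rising among all genes. None passed without P803 and P425 (10 at an unadjusted p under 0.05 in limma). Under that unadjusted p in the same fit were 2573 of all 22179 genes. None of the 10 genes nearest to it on the chromosome passed the limma threshold, and 3 rose at an unadjusted p under 0.05. Sftpd, a surfactant protein gene, had the lowest adjusted p of the 10 (0.12, r = 0.48).

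Zmym5 rose with its neighbour and relative Zmym2 and with part of the LSD1 and CoREST group. Of 14 measured members 5 rose and 1 fell, beside 8.75% rising and 13.6% falling among all genes. Zmym2 had an r of 0.87 (limma adjusted p = 5.3e-06) and Zmym4 0.73 (adjusted p = 0.00059). The deacetylase Hdac2 had 0.70 (adjusted p = 0.00089), Phf21a, which reads unmethylated histone H3, 0.69 (adjusted p = 0.0019) and the corepressor Rcor3 0.49 (adjusted p = 0.047). Hmg20b, another LSD1 partner, fell (r = -0.49, adjusted p = 0.046). Kdm1a, which encodes LSD1 itself, had -0.21 (adjusted p = 0.45), Rcor1 0.13 and Hdac1 -0.45 (adjusted p = 0.062).

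The list therefore did not move as 1 block. Its score had an r of 0.46 with Zmym5 (adjusted permutation p = 0.042, rho 0.44), of 0.32 without P803 and P425, and of 0.35 under quantile normalization, both short of the threshold. Zmym2 passed without P803 and P425 (0.81) and, given mitosis, as a partial correlation (partial r = 0.79, limma adjusted p = 0.00085).

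**Figure D3:**
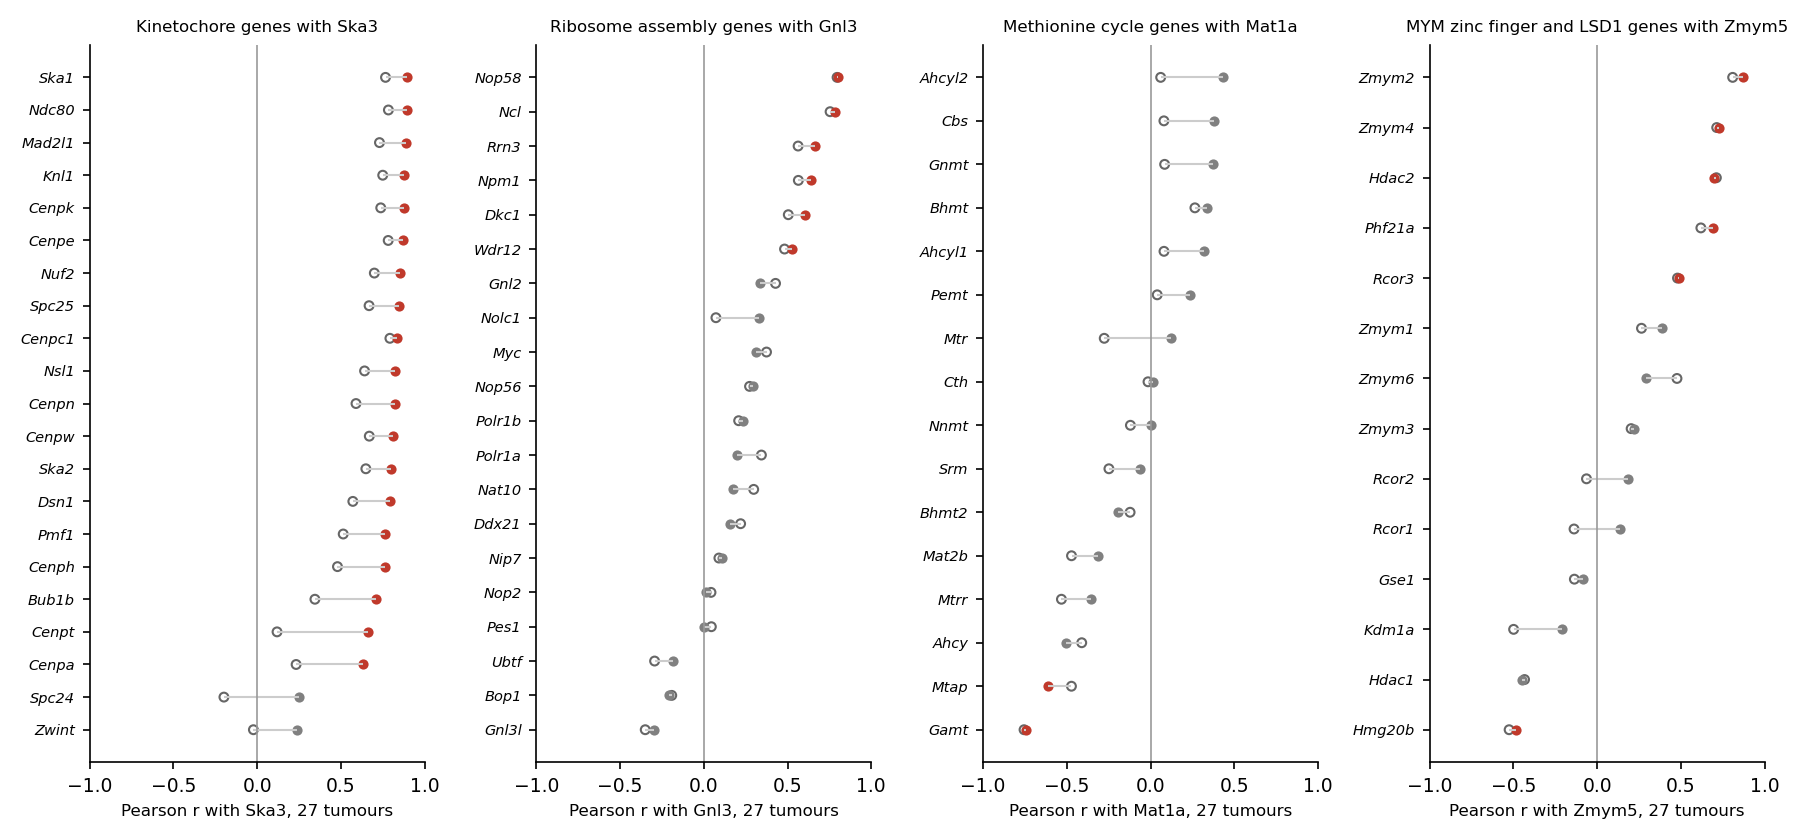
Pearson r across tumours (x axis) of each gene of a pathway list (y axis) with 1 of the 4 genes. Filled points are over 27 tumours, red where the limma adjusted p is under 0.05, and open points are without P803 and P425. The kinetochore panel is filled on the right (19 of 21 red), whereas 6 of 20, 2 of 16 and 6 of 14 genes are red in the other panels.

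The Zmym5 and Zmym2 promoters are shown because these adjacent genes have nearly the same sequence around their starts. The full RefSeq windows, which also run past each start, were aligned here. Over 271 aligned bases they had 267 identical bases (98.5%) and 17 gap positions. The last 160 bases before the outermost Zmym5 start, chr14:56811717-56811876 on the minus strand, and the aligned stretch of Zmym2, chr14:56886414-56886573 on the plus strand (both GRCm38.p6), are printed with their CCAAT boxes in capitals.
Zmym5: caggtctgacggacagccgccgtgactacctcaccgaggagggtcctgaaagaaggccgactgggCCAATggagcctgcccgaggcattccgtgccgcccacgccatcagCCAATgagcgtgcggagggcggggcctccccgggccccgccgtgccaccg
Zmym2: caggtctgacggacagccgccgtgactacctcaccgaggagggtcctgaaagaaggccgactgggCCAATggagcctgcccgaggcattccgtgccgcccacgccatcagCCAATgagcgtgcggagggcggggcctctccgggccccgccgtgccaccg
Over this stretch 159 of 160 bases were identical, and the only difference was C139T, with positions counted from 1 at the first printed base and the Zmym5 base named first. The pair of CCAAT boxes lies at 95 to 91 and 50 to 46 bases before the Zmym5 start and at 124 to 120 and 79 to 75 before the Zmym2 start, on the strand of each gene. With sequences this close between the genes, whether the Zmym5 row also reads Zmym2 transcripts was not tested.

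Other neighbours of Zmym5 followed it too. Of the 10 nearest measured genes 4 rose and 2 fell, beside 8.75% rising and 13.6% falling among all genes. Those that rose were Zmym2, the centriole protein gene Cenpj (r = 0.85, limma adjusted p = 5.3e-06), the paraspeckle protein gene Pspc1 (0.85, adjusted p = 6.1e-06) and the noncoding Gm16973 (0.66, adjusted p = 0.0032; 0.53, adjusted p = 0.051 without P803 and P425). The gap junction gene Gja3 fell (-0.65, adjusted p = 0.0095), as did 2410022M11Rik (-0.64, adjusted p = 0.0061), a noncoding gene that overlaps Zmym5. Parp4, which lies between Cenpj and Gm16973, had an r of 0.25 (adjusted p = 0.34), so that the 10 nearest genes held r from -0.65 to 0.87.

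The 10 genes most like Zmym5 were Wbp4 (r = 0.91), Rbm26 (0.90), Appl1 (0.89), Cops2 (0.89), Wtap (0.89), Prpf39 (0.89), Pias1 (0.89), Srsf10 (0.89), Pbrm1 (0.89) and Orc4 (0.89). Wbp4, Prpf39 and Srsf10 act in splicing, and Wtap is part of the RNA adenosine methylation complex. Wbp4, Rbm26, Appl1 and Pbrm1 lie on chromosome 14, which holds 796 of the 22180 genes. All 10 passed the limma threshold without P803 and P425, and again once mitosis entered as a covariate. Because the 10 were picked by r over the same tumours, these passes are not an independent test. The most opposite were Ppcdc (-0.90), Dgcr2 (-0.88), Usp50 (-0.87), Eola1 (-0.86) and Dedd2 (-0.86).

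In all 4963 genes followed Zmym5, 22.4%, with 1940 rising and 3023 falling. Leaving out P803 and P425 gave a count of 3272, 14.8%, with 1391 rising (6.27%) and 1881 falling (8.48%), and adding the mitosis score as a covariate gave 2325. Of 18 mitosis genes 11 rose, led by Kif11, Top2a and Bub1 (r = 0.72, 0.69 and 0.69), and of 21 kinetochore genes 15. Of 13 luminal markers 7 fell, and none without P803 and P425 (5 at an unadjusted p under 0.05 in limma). Under that unadjusted p in the same fit were 6803 of all 22179 genes.

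Ska3, Gnl3 and Zmym5 rose together, and Mat1a ran against them. Between Ska3 and Gnl3 r was 0.78 (adjusted permutation p = 0.00021, rho 0.72), between Ska3 and Zmym5 0.79 (adjusted p = 0.00014, rho 0.86) and between Gnl3 and Zmym5 0.80 (adjusted p = 0.00014, rho 0.69). Without P803 and P425 these were 0.68, 0.81 and 0.69. Given the mitosis score they were 0.66, 0.71 and 0.69, all past the threshold by permutation. Within the 19 tumours of low luminal score they were 0.60, 0.77 and 0.71 (adjusted permutation p = 0.025, 0.0014 and 0.0034).

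With Mat1a, r was -0.60 for Ska3 (adjusted permutation p = 0.019, rho -0.46), -0.75 for Gnl3 (adjusted p = 0.00021, rho -0.55) and -0.60 for Zmym5 (adjusted p = 0.0048, rho -0.31). Those with Ska3 and Zmym5 rested on few tumours. Without P803 alone, r was -0.50 for Ska3 (adjusted permutation p = 0.060) and -0.41 for Zmym5 (adjusted p = 0.074). For Gnl3 it was -0.61 (adjusted permutation p = 0.0055), still past the threshold, as was its rho over 27 tumours (adjusted p = 0.017). Without P803 and P425, r was -0.39, -0.54 and -0.34, of which only Gnl3 passed. Without P803, P569, P425 and P1469, the 4 tumours with the highest Mat1a, r was -0.16 for Ska3, -0.29 for Gnl3 and 0.061 for Zmym5, none past the threshold. Leaving out its highest values also narrows the range of Mat1a, which can lower the size of r.

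**Figure D4:**
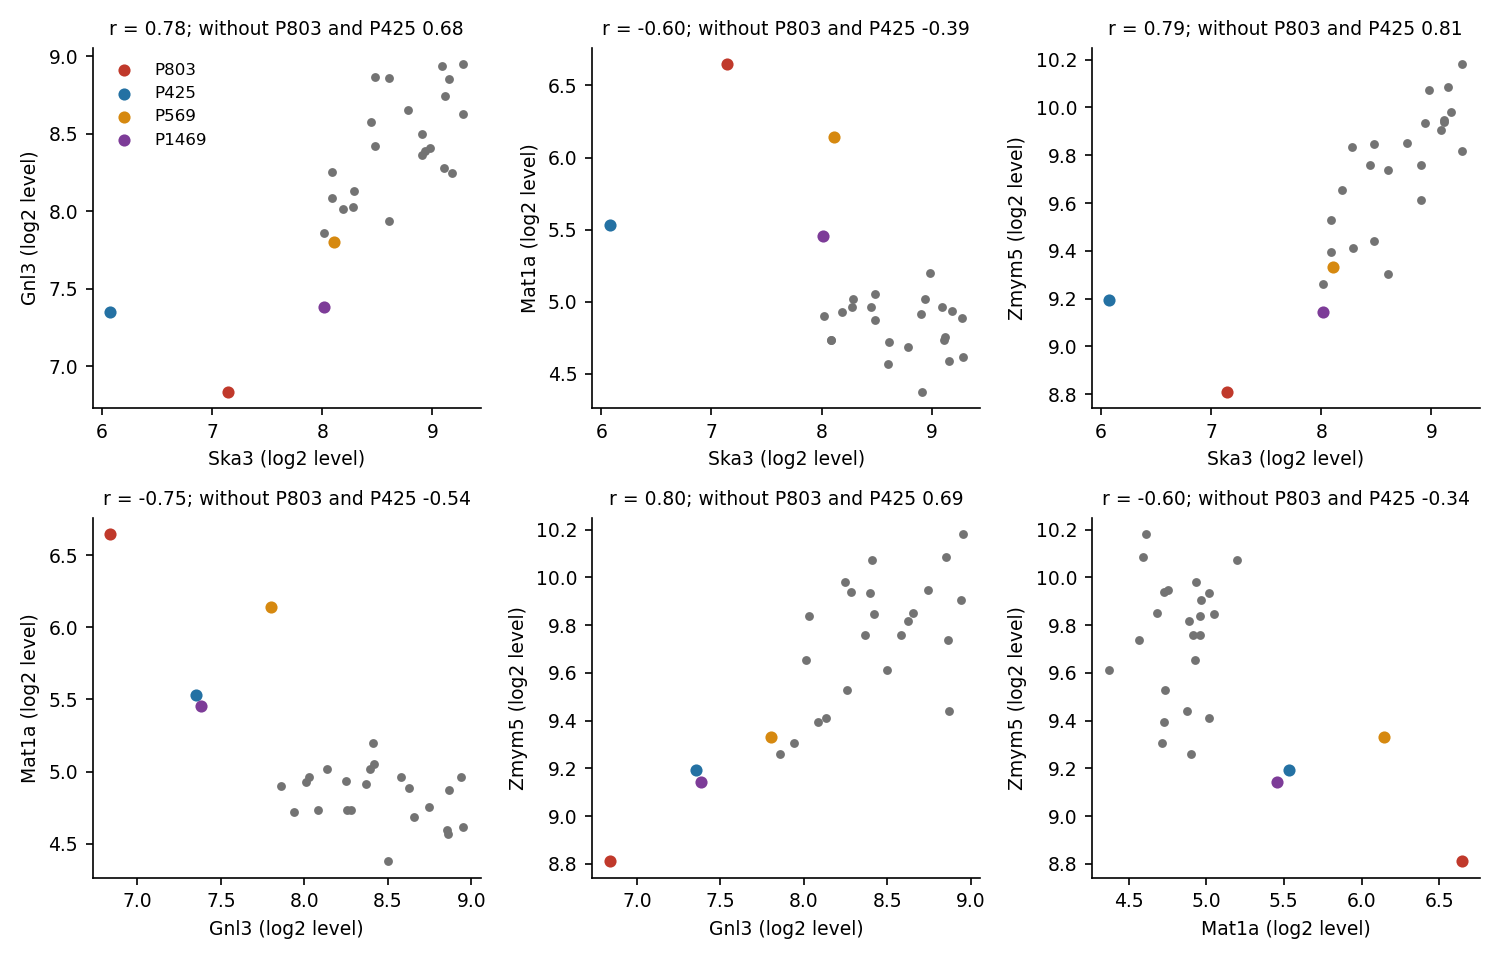
Log2 levels of the 6 pairs of genes (axes) in 27 tumours, with P803, P425, P569 and P1469 coloured and r given with and without P803 and P425. The grey points form a rising band in the 3 panels without Mat1a and in the panels with Mat1a the coloured points hold its 4 highest values.

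Ska3, Gnl3 and Zmym5 also rose with the level of their chromosome as a whole, and Mat1a ran against it in fewer settings. The chromosome 14 level of a tumour, chosen as a measure after the data were seen, is the median centred log2 value of 456 of its genes, the 4 left out, minus that of all genes. It was -0.48 in P803 and -0.24 in P912, and between -0.05 and 0.11 in the other 25 tumours. Its r was 0.61 with Ska3 (adjusted permutation p = 0.034, rho 0.84), 0.72 with Gnl3 (adjusted p = 0.00049, rho 0.70), 0.76 with Zmym5 (adjusted p = 0.00014, rho 0.82) and -0.71 with Mat1a (adjusted p = 0.011, rho -0.41). Without P803 and P912, r was 0.70, 0.65, 0.78 and -0.56. Leaving out P803 and P425 instead, it was 0.70, 0.57 and 0.70 for Ska3, Gnl3 and Zmym5, all past the threshold by permutation, and -0.31 for Mat1a (adjusted permutation p = 0.27), whose rho over 27 tumours did not pass either (adjusted p = 0.084). Among 20 chromosomes, the r of chromosome 14 was the largest in size for Gnl3 and Mat1a and the second for Ska3 and Zmym5, after chromosome 7 (-0.80 for both).

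Genes of chromosome 14 rose with Ska3 in 18.5% of 795 cases, against 10.7% of genes elsewhere. The shares were 13% against 5.63% for Gnl3 and 16.5% against 8.43% for Zmym5. For Mat1a 9.06% of them fell, against 1.91% elsewhere. These shares were computed over all tumours only. Whether they hold without P803, which had the lowest chromosome 14 level (-0.48) and the highest Mat1a (6.65), was not tested. RefSeq order puts the genes far apart on the chromosome, with Gnl3 at place 148, Mat1a at 232, Zmym5 at 475 and Ska3 at 489 of 796 measured genes, so that only Zmym5 and Ska3 lie close, 14 genes apart.

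Given the chromosome 14 level, r was 0.62 between Ska3 and Gnl3, 0.63 between Ska3 and Zmym5 and 0.57 between Gnl3 and Zmym5, all past the threshold by permutation. Given both that level and the mitosis score they were 0.30, 0.37 and 0.37 (adjusted permutation p = 0.21, 0.12 and 0.12). Under the same setting Mat1a had -0.065 with Ska3, -0.40 with Gnl3 and 0.024 with Zmym5. What the chromosome 14 level reflects was not tested.

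Array deviation moved with the genes as well. Its r was -0.80 with Ska3 (adjusted permutation p = 0.00014), -0.57 with Gnl3 (adjusted p = 0.011), -0.57 with Zmym5 (adjusted p = 0.0078) and 0.47 with Mat1a (adjusted p = 0.055). With P803 and P425 left out it was -0.61 for Ska3 (adjusted permutation p = 0.010), and neither Gnl3 (-0.40, adjusted p = 0.17) nor Zmym5 (-0.48, adjusted p = 0.083) passed. Given array deviation the pairs without Mat1a had r of 0.66, 0.68 and 0.71, past the threshold by permutation. Mat1a then had -0.43 with Ska3 (adjusted permutation p = 0.058), -0.66 with Gnl3 (adjusted p = 0.0012) and -0.47 with Zmym5 (adjusted p = 0.041). The limma fits were not run with array deviation.

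**Figure D5:**
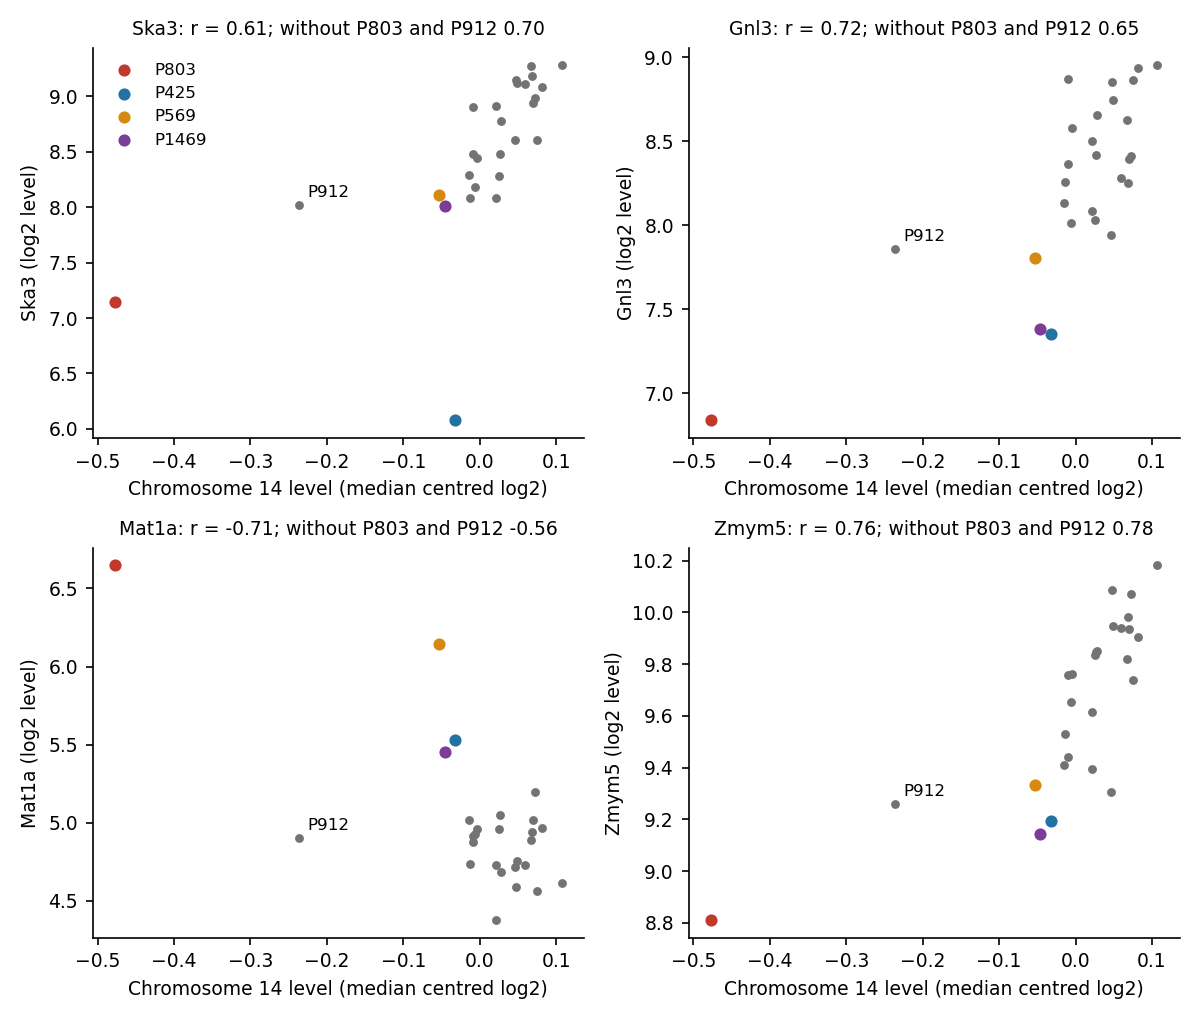
Log2 level of each gene (y axis) against the chromosome 14 level (x axis, median centred log2 of 456 genes) in 27 tumours, with P803, P425, P569 and P1469 coloured and P912 named. P803 (-0.48) and P912 (-0.24) lie apart on the left, and among the others Ska3, Gnl3 and Zmym5 rise with the level.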

How the data were processed

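RNA of 27 snap-frozen tumours was labelled with a GeneChip kit, 1 array each. The authors deposited log2 values (41345 rows), made with Partek per the submitters' processing notes; its version and their normalization and build: not given in the sources used here. Values were used as deposited. Of the rows, 23521 had 1 symbol, 1814 several and 16010 none in the platform table; a gene with several rows kept that of highest mean. Tests used limma 3.58.1 (lmFit, eBayes with trend) over all genes, and r and rho with 100000 two-sided permutations (smallest p 1e-05), both with Benjamini-Hochberg adjusted p called under 0.05. "Given" means partial correlation of residuals. A score is the mean centred log2 value of a list's measured genes (203 of 216 in 16 lists). Clusters were called with mclust 6.1.1 (BIC difference over 6, Ashman's D over 2, at least 3 tumours). Scripts were tested on simulated data.

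The 4 genes and the lists were chosen with earlier results of these data known. The text names the 4 genes and the 10 most and 5 least alike of each. Of the 5 nearest genes on each side it names those that passed or overlap, and also Lats2, Parp4 and Sftpd. Of each list it names the strongest 3 and, up to 8, those past the threshold. Other list genes, the chromosome 14 level, the array deviation and the promoter motifs were chosen after values were seen. So were the tumours left out beyond P803 and P425. P803 and P425 are the 2 tumours farthest from the median of Ska3 and of Gnl3. They are also the 2 lowest on the mitosis score. Leaving them out narrows those ranges, which can lower the size of r. Nothing in the labels says that samples share a litter or batch. Promoters are from RefSeq.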

Additional observations from a re-analysis of the deposited data

How the results depend on the processing

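Directions were kept in most settings: of 241 comparisons other than those leaving out 1 tumour, 192 stayed on their side, 31 lost the threshold, 1 gained it, 14 counts moved by over 1.5 times and 3 reversed. Not all of these are separate tests. Ska3, Gnl3, Mat1a and Zmym5 each had 1 row, so averaging all rows of a gene could not change their pair correlations. The 2 tumours farthest on Ska3 and on Gnl3 are P803 and P425. Leaving out either set is therefore the same fit, with 2218 and 542 genes called both times. The number of arrays limits the precision. No paired analysis was possible because there is 1 group. Mat1a, low on the arrays, had no slope where only genes above the median of all rows were tested.

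Slopes on mitosis: 0.28 for Gnl3 with composition covariates and 0.14 for Zmym5 on DNA replication were lost. Leaving out 1 tumour gave, per SD over all 27 tumours, 0.60 to 0.77 for Ska3, 0.27 to 0.57 for Gnl3, -0.41 to -0.15 for Mat1a and 0.18 to 0.43 for Zmym5, the steepest without P425 and the flattest without P803. Pairs ranged from 0.74 to 0.80 (Ska3 and Gnl3), -0.63 to -0.50 (Ska3 and Mat1a), 0.75 to 0.86 (Ska3 and Zmym5), -0.77 to -0.61 (Gnl3 and Mat1a), 0.73 to 0.86 (Gnl3 and Zmym5) and -0.65 to -0.41 (Mat1a and Zmym5).

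Given the chromosome 14 level and mitosis, every pair was lost: 0.30, -0.065, 0.37, -0.40 and 0.37 in the same order, and Mat1a with Zmym5 turned to 0.024. Given the chromosome 14 level alone, Ska3 with Mat1a (-0.30) and Mat1a with Zmym5 (-0.15) were lost. Ska3 with Mat1a was also lost without P803 and P425 (-0.39; -0.28 given mitosis), with composition covariates (-0.40), given array deviation (-0.43), by rank (-0.46), without the 4 tumours of highest Mat1a (-0.16) and within the 19 of low luminal score (-0.21). Gnl3 with Mat1a was lost without P803 and P425 given mitosis (-0.47), without those 4 (-0.29) and within the 19 (-0.42). Mat1a with Zmym5 was lost without P803 and P425 (-0.34; -0.20 given mitosis) and by rank (-0.31), and reversed without those 4 (0.061) and within the 19 (0.017). The cause was not tested.

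Without P803 and P425 the following were lost: Ska3 and Gnl3 with DNA replication (0.28 and 0.24), Gnl3 and Zmym5 with array deviation (-0.40 and -0.48), Mat1a with the chromosome 14 level (-0.31) and Zmym5 with its list (0.32); Mat1a with its list gained the threshold (-0.54). Quantile normalization lost Gnl3 with DNA replication (0.43) and Zmym5 with its list (0.35), which centring of the array medians lost too (0.40). The counts for Ska3, Gnl3, Mat1a and Zmym5 were 2218, 542, 230 and 3272 without P803 and P425, 488, 756, 582 and 2325 with mitosis as a covariate, 2218, 542, 512 and 3260 without the 2 tumours farthest on the gene, and 1583 (Gnl3) and 355 (Mat1a) with composition covariates. The share rising among those called was 44.0, 49.2, 63.9 and 39.1%, and 58.0, 61.3, 52.3 and 51.1% among genes above the median of all rows.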
